A study of Mus musculus with 12 samples.

Results

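Endothelial cells of the aorta were compared between mice lacking both Dscr-1 and ApoE (double null) and mice lacking ApoE alone (ApoE null), as their labels name them. The comparison was defined by the array titles and took the 4 aortic arrays, 2 per genotype, of the 12 arrays in the series, the other 8 being of liver. All mice were adult and of the C57BL/6J strain. The labels give both groups as ApoE null, so that by label the groups differ in Dscr-1 only. The series description instead names Dscr-1 null as the other aortic genotype, and the labels were followed here. The cells were primary cultures kept for several days, and cells of wild-type or Dscr-1 null aortas were not analysed here. The labels give a high-fat diet for the liver mice and no diet for the aortic mice. The study's text instead describes its liver microarrays as coming from animals on normal chow. The labels give neither the number of mice behind an array nor the part of either gene that was deleted. The source names of same-numbered arrays of the 2 genotypes begin with the same run name, so the first array of each genotype is called run 1 here and the second run 2. What was done together within a run is not stated.

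Dscr-1, listed as Rcan1 on the array, encodes an inhibitor of calcineurin, the calcium-dependent phosphatase that lets NFAT transcription factors enter the nucleus. NFAT in turn induces Rcan1, which closes a feedback loop known from endothelial cells activated by VEGF or thrombin. Apoe encodes the apolipoprotein through which remnant lipoproteins are cleared, and its loss is a common mouse model of atherosclerosis, in which the aortic endothelium takes up modified lipoproteins and recruits leukocytes.

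The deposited aortic values are on a log2 scale. Probe sets entered the test if 2 or more of the 4 arrays held them above that array's median, and a gene was read from its brightest tested probe set, which left 11650 genes. The array medians lay between 4.46 and 4.5. Double null 2 was the least similar array. Its mean correlation with the other 3 was 0.985, against 0.9906 to 0.9916 for those, and it had 465 genes more than 2-fold below and 196 more than 2-fold above the mean of the other 3. Each of the other arrays had 43 to 71 genes below and 42 to 141 above. With 2 arrays per genotype, p-values cover no spread but that between these arrays, which may be technical, and 2 residual degrees of freedom were left in the fit. Differences are given below as double null minus ApoE null on the log2 scale, for each run as well as for the group means.

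Of 11650 genes, 1 rose and 1 fell in double null cells at an adjusted p under 0.05 (limma, Benjamini-Hochberg), which is 0.00858% in each direction. The gene that rose was Hprt, which encodes a purine salvage enzyme. Hprt was at 6.90 and 6.73 on the ApoE null arrays and at 10.68 and 10.63 on the double null arrays. Both double null arrays lay far above both ApoE null arrays. The difference was 3.84 (SE 0.15, adjusted p = 0.0263 by limma), or 14.3-fold, and it was 3.77 in run 1 and 3.91 in run 2. The gene that fell was Xist, the RNA that coats the inactive X chromosome in female cells. Xist was at 9.06 and 8.85 on the ApoE null arrays and at 4.04 and 4.51 on the double null arrays, where it was at about the array median. The difference was −4.68 (SE 0.22, adjusted p = 0.0275 by limma), or 25.6-fold, with −5.02 in run 1 and −4.34 in run 2. With the run as a block, neither passed (adjusted p = 0.351 for Hprt and 0.534 for Xist by limma). The differences were unchanged there, with an SE of 0.12 for Hprt and 0.22 for Xist, but fewer residual degrees of freedom were left. Without either ApoE null array, again neither passed, with differences of 3.75 and 3.93 for Hprt and −4.78 and −4.58 for Xist. Without either double null array the differences were 3.82 and 3.86 for Hprt and −4.44 and −4.91 for Xist.

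At the level of probe sets, 6 passed. A second Xist probe set gave 6.13 and 5.96 on the ApoE null arrays and 3.10 and 3.05 on the double null arrays, the same direction as the brighter one. A dimmer probe set of Lrmda, a gene tied to melanocyte differentiation, gave 6.69 and 6.46 against 3.55 and 3.43. The brighter Lrmda probe set differed by −2.30 and did not pass (adjusted p = 0.209 by limma). The other 2 passing probe sets are annotated to no single gene and were higher in double null cells, by 5.14 and 5.75. Both were below the array medians on both ApoE null arrays, and entered the test through the double null arrays alone. The second Xist and the dimmer Lrmda probe sets were below the medians on both double null arrays. They entered the test through the ApoE null arrays alone.

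Xist is transcribed in cells with more than a single X chromosome, so genes of the Y chromosome, a list added after the values were seen, were read beside it. Eif2s3y was at 8.42 and 8.51 on the ApoE null arrays and at 8.29 and 8.21 on the double null arrays. Kdm5d was at 7.30 and 7.20 against 7.20 and 6.99, and Uty at 7.13 and 6.96 against 6.83 and 7.07. Of the 5 listed genes with a probe set, these 3 exceeded the array median on all 4 arrays and the other 2 on none. The Y-linked signal of these 3 genes was at about the same level on all 4 arrays. The ApoE null arrays thus carried both Xist signal and signal of these 3 genes. The sex of the mice is not in the labels, and the Xist difference and the genotype cannot be told apart with these arrays. The study's methods also describe mouse lines with a transgene placed at the Hprt locus. The labels of the 4 arrays name no such allele, and whether any of these mice carried one was not tested.

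**Figure D1:**
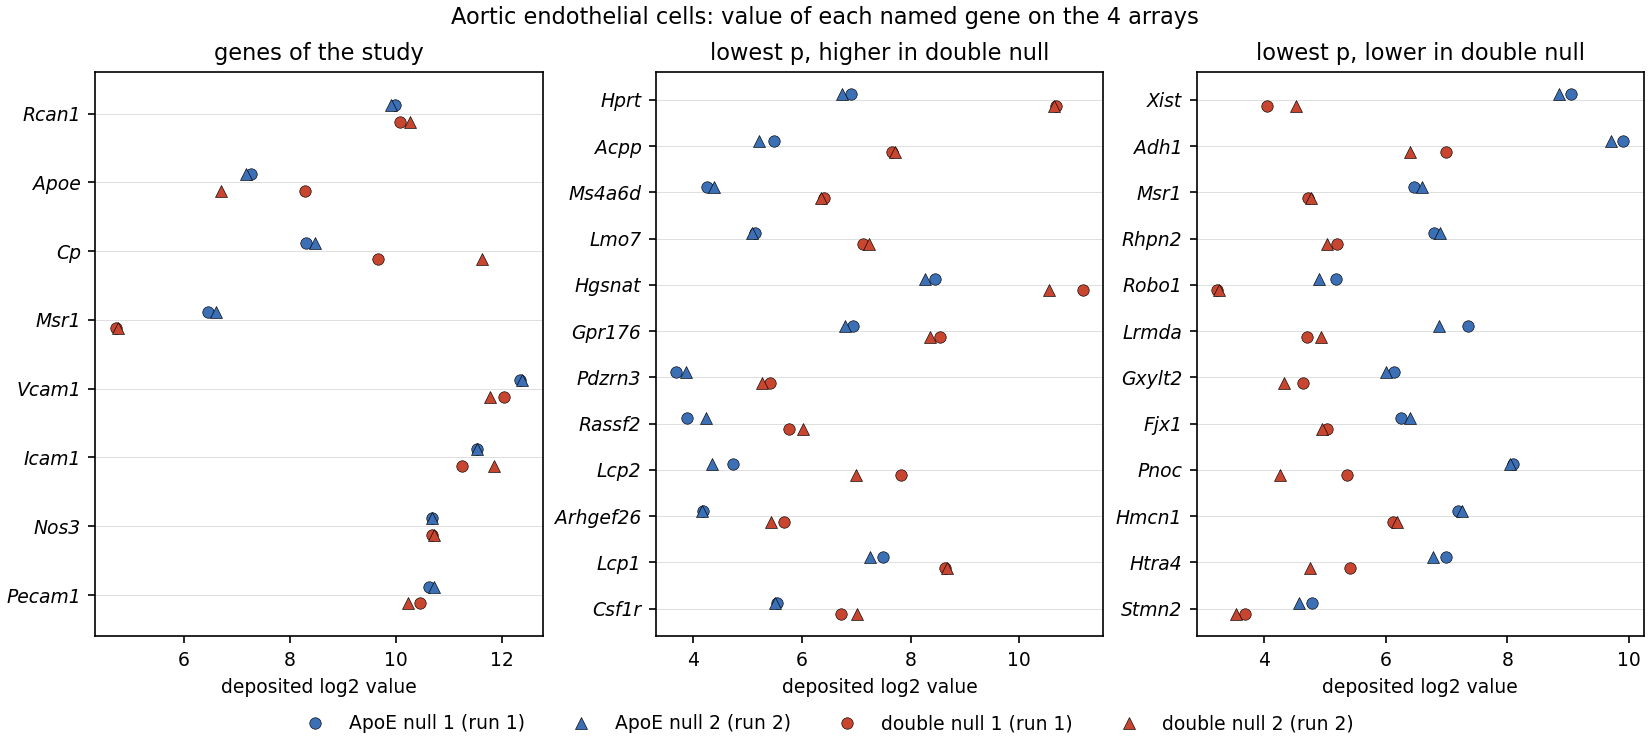
Deposited log2 value (horizontal axis) of the genes the study ties to aortic cells and of the 12 genes per direction with the lowest p, one row per gene. Blue marks are ApoE null and red marks double null arrays, circles run 1 and triangles run 2. Of the genes shown, Hprt (6.73 to 10.68) and Xist (4.04 to 9.06) passed the test. In the middle and right panels the 2 genotypes do not overlap for any gene, by the choice of these genes.

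The promoters of the genes that passed are shown with those of Rcan1, the gene deleted by label, and of Cp, a gene the study measured in these cells. They are RefSeq sequences of GRCm38.p6, from 250 bases before to 50 after a transcript start, read 5′ to 3′ on the gene's strand. Capitals mark the NFAT core GGAAA and the AP-1 motif TGANTCA, on either strand. NFAT often binds DNA next to AP-1. GGAAA was found in 61.3% and TGANTCA in 7.81% of the 32851 promoters in the table, so a promoter with GGAAA is common. The Hprt promoter (chrX:52987828-52988127, plus strand) holds neither, and that of Xist (chrX:103483184-103483483, minus strand) holds GGAAA once, on the opposite strand and after the start. Cp has 2 starts in the table (chr3:19956804-19957103 and chr3:19956999-19957298, plus strand), and the first holds TGANTCA beside GGAAA. Of the 2 Rcan1 starts (chr16:92400029-92400328 and chr16:92466120-92466419, minus strand), the first holds GGAAA 3 times and TGANTCA once, and the second holds neither. The letters GAAANNGAA, a part of the interferon response element found in 8.56% of promoters, were in none of the 6. Msr1 is not in the table.
Hprt: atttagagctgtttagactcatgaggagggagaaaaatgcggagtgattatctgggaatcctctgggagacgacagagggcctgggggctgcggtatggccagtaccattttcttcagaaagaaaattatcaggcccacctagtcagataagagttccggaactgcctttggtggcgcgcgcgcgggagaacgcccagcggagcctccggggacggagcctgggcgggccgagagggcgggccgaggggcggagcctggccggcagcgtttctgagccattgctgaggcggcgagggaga
Xist: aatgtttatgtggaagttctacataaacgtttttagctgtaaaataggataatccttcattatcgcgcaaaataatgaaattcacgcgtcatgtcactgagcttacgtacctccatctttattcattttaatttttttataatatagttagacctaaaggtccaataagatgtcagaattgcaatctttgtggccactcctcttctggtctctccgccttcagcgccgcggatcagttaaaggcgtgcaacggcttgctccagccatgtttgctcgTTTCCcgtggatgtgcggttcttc
Cp, first start: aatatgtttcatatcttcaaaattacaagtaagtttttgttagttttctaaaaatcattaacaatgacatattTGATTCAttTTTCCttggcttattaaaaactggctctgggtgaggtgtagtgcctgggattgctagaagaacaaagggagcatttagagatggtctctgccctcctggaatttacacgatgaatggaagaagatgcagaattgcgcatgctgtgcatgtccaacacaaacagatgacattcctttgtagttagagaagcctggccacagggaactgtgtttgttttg
Cp, second start: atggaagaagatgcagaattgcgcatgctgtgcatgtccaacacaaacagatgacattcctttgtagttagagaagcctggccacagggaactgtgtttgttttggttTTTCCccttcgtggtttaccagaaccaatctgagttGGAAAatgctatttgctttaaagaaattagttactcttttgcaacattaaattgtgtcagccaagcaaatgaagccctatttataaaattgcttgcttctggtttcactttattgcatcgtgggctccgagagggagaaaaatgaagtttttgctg
Rcan1, first start: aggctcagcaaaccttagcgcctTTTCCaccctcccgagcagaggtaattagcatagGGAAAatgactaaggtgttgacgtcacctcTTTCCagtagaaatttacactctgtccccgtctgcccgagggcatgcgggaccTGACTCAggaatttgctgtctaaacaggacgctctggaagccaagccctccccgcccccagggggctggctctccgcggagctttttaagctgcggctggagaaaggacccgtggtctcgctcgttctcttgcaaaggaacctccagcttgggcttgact
Rcan1, second start: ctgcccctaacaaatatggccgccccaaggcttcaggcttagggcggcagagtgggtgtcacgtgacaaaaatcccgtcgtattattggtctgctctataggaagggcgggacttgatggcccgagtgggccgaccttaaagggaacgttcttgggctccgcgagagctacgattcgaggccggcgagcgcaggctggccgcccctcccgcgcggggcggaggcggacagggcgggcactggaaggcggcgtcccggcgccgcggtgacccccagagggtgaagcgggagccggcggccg

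The targeted genes were read as a check of the labels. Rcan1 was at 9.99 and 9.92 on the ApoE null arrays and at 10.09 and 10.26 on the double null arrays, so that its brighter probe set was not lower in cells labelled as lacking it. The difference was 0.22 (SE 0.16, adjusted p = 1 by limma). Its second probe set was at 6.30 and 5.95 against 6.65 and 6.87. Apoe, missing by label from both groups, was at 7.27 and 7.17 on the ApoE null arrays and at 8.29 and 6.69 on the double null arrays, and all 4 values exceeded the array medians. Whether the probes match deleted or remaining parts of either gene is not given, so they check neither genotype. Of the 20 protein-coding neighbours of Rcan1, 10 per side, 15 were tested and 0 passed by limma. At an unadjusted p under 0.05 were 2 of them, Donson, which acts at replication forks (difference 0.48), and Slc5a3, a myo-inositol transporter (−0.82). Over all genes, 577 of 11650 were under that p.

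The genotypes did not overlap, with both double null arrays on one side of both ApoE null arrays, for 1954 genes that were higher (16.8% of those tested) and 1661 that were lower (14.3%). At an unadjusted p under 0.05 were 312 higher (2.68%) and 265 lower (2.27%). These shares are the background for the counts of every list. More than 2-fold in both runs were 35 genes higher (0.3%) and 47 lower (0.403%). The median difference over all genes was −0.01. Within run 1 alone, 128 genes were more than 2-fold higher and 100 lower, and within run 2 alone 257 and 407. The run 2 differences were also more spread across genes (SD 0.54 against 0.32), and 6520 of 11650 genes had the same sign in both runs.

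**Figure D2:**
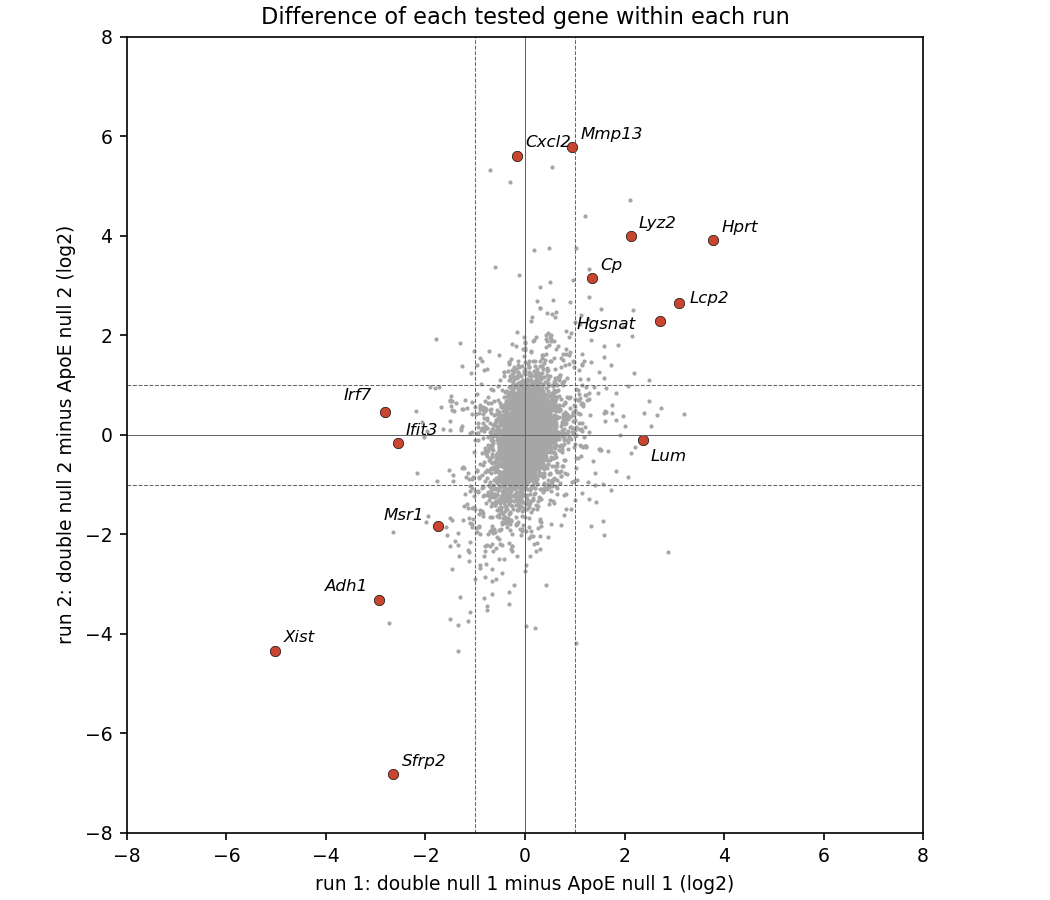
Difference double null minus ApoE null of each tested gene within run 1 (horizontal axis, log2) and within run 2 (vertical axis, log2). Grey points are the 11650 genes, red points genes named in the text, and dashed lines mark 2-fold. Hprt (3.77 and 3.91) and Xist (−5.02 and −4.34) lie near the diagonal, Cxcl2 (−0.16 and 5.61) and Mmp13 (0.95 and 5.78) are apart in run 2 and Irf7 (−2.81 and 0.46) and Lum (2.36 and −0.11) in run 1.

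The comparison addresses whether loss of Dscr-1 changes how the aortic endothelium handles lipids and leukocytes. Cp encodes ceruloplasmin, a copper-carrying ferroxidase. It was at 8.31 and 8.48 on the ApoE null arrays, at 9.66 on double null 1 and at 11.62 on double null 2. Both double null arrays lay above both ApoE null arrays, and they were further from each other than double null 1 was from the ApoE null arrays. The difference was 2.25 (SE 0.64), or 4.75-fold, and did not pass (adjusted p = 0.905 by limma). It was 1.36 in run 1 and 3.14 in run 2. All 8 Cp probe sets were higher on both double null arrays, 7 of them tested, with differences from 0.83 to 2.41. Cp differed by 3.23 without double null 1 and by 1.27 without double null 2. In those fits the lone double null array was assumed to vary as little as the ApoE null arrays, and Cp passed (adjusted p = 1.28e-15 and 2.45e-05 by limma).

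Msr1 encodes scavenger receptor A, which takes up acetylated and oxidized low-density lipoprotein. It was at 6.46 and 6.60 on the ApoE null arrays and at 4.71 and 4.76 on the double null arrays. The 2 arrays of each genotype were close, and the difference was −1.79 (SE 0.15), or 3.46-fold. It did not pass (adjusted p = 0.155 by limma). The other 3 Msr1 probe sets were lower on both double null arrays too, with differences from −2.47 to −1.27. The other scavenger receptors did not share this difference in size. Of 11 tested members of that list, 2 were higher and 3 lower without overlap (against 16.8% and 14.3% of all genes). The median was −0.07. Olr1, the lectin-like receptor for oxidized lipoprotein, was at 6.27 and 6.42 against 6.03 and 5.73. Cd68, a lysosomal glycoprotein, was at 7.11 and 6.80 against 7.62 and 8.77. Cd36 was below the array medians on all 4 arrays, and Scarb1 and Stab1, which bind high-density and modified lipoproteins, differed by −0.17 and 0.01. These 3 genes were picked after their values were seen.

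The adhesion molecules through which leukocytes bind the endothelium were mixed. Vcam1 was at 12.34 and 12.39 on the ApoE null arrays and at 12.05 and 11.78 on the double null arrays. The difference of −0.45 (SE 0.17) did not pass (adjusted p = 1 by limma). A second Vcam1 probe set gave −0.58, and another, with overlapping genotypes, 0.08. Icam1 was at 11.54 and 11.53 against 11.25 and 11.86, so that the ApoE null arrays lay between the double null arrays. Of 14 tested members, 5 were lower and 2 higher without overlap (against 14.3% and 16.8% of all genes), and 3 were lower at an unadjusted p under 0.05 (against 2.27%). Jam2, a junctional adhesion molecule, was at 8.85 and 8.76 against 7.95 and 7.20, and Cd44, the hyaluronan receptor, at 10.75 and 10.91 against 10.26 and 10.01. Sele, the endothelial selectin, differed by −0.42. None of the 14 passed by limma.

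Nos3, the endothelial nitric oxide synthase, was at 10.68 and 10.69 on the ApoE null arrays and at 10.68 and 10.72 on the double null arrays, with a difference of 0.01 (SE 0.14). Of 17 tested genes of nitric oxide and arginine handling, 3 were higher and 3 lower without overlap (against 16.8% and 14.3% of all genes). The median was 0.01. The member with the lowest p was Slc7a2, a transporter of arginine and other cationic amino acids. It was at 7.36 and 7.33 against 8.61 and 9.66, higher in both runs, with a difference of 1.80 (SE 0.36, adjusted p = 0.686 by limma). Ddah2, which breaks down an inhibitor of nitric oxide synthase, was at 10.25 and 10.16 against 9.92 and 8.78. Qdpr and Nosip, which recycle the synthase's cofactor and bind the synthase, differed by 0.35 and −0.25.

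Genes of the pathway Dscr-1 acts on had RNA differences from −0.47 to 0.60. Of 17 tested calcineurin, NFAT and Rcan genes, 5 were higher and 2 lower without overlap (against 16.8% and 14.3% of all genes). The median was 0.03, and none passed by limma. Ppp3ca, a catalytic subunit of calcineurin, was at 10.67 and 10.64 on the ApoE null arrays and at 10.34 and 10.03 on the double null arrays. The difference was −0.47 (SE 0.17), the lowest p of the list. Nfatc4 was at 7.63 and 7.42 against 7.87 and 7.89. Rcan2, a relative of Rcan1, was at 6.11 and 5.62 against 6.88 and 6.05. Ppp3cc, another catalytic subunit, differed by 0.23. Genes reported as NFAT targets were mixed, with 3 of 14 higher and 4 lower without overlap, against the same shares of all genes. Their median was −0.09 in run 1 and 0.33 in run 2. Il6, an inflammatory cytokine, was at 5.25 and 4.63 against 6.27 and 8.39. Ptgs2, the inducible cyclooxygenase, was at 10.70 and 10.86 against 11.19 and 12.66. In both, double null 2 was the highest array. Angpt2, the angiopoietin that destabilizes vessels, was closer between runs, at 11.60 and 11.61 against 12.01 and 12.17. Il6, Ptgs2 and Angpt2 are the 3 targets that were higher without overlap. Vcam1, given above and also of this list, was lower, with a difference of −0.45.

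**Figure D3:**
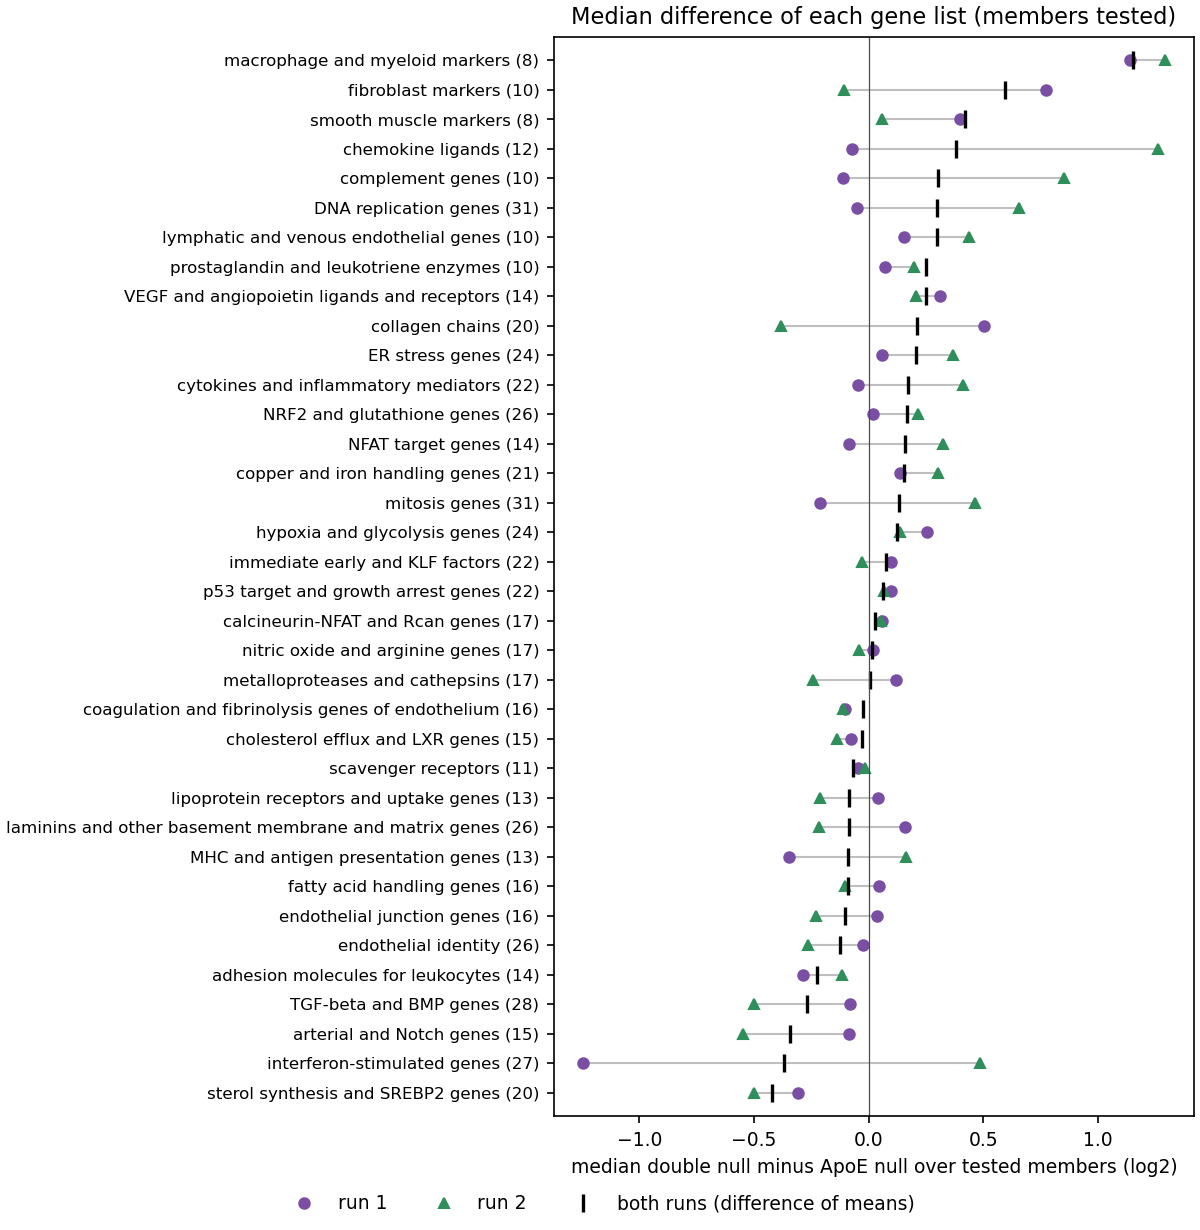
Median difference double null minus ApoE null over the tested members of each gene list with 8 or more tested members (horizontal axis, log2), with the number tested in brackets. Circles are run 1, triangles run 2 and bars the difference of group means. The sterol synthesis list lies below 0 in both runs (−0.31 and −0.50), and the interferon-stimulated list on opposite sides of 0 (−1.25 and 0.49).

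Genes of sterol synthesis and SREBP2 were lower in double null cells as a list. SREBP2 is the factor that switches on cholesterol synthesis when cells lack sterols. All 20 members with a probe set were tested, and all 20 differences were negative, from −0.88 to −0.05, with a median of −0.42 against −0.01 over all genes. The genotypes did not overlap for 18 of 20, against 14.3% of all genes in that direction, and 18 were lower in both runs. None passed by limma, and 6 were lower at an unadjusted p under 0.05 (against 2.27% of all genes). Sqle, the squalene epoxidase, was at 9.42 and 9.60 on the ApoE null arrays and at 9.01 and 8.76 on the double null arrays. The difference of −0.63 (SE 0.17) is 1.55-fold. Fdft1, which makes squalene, was at 10.45 and 10.39 against 10.03 and 9.67. Mvd and Fdps, of the mevalonate part of the pathway, were lower in both runs, with differences of −0.43 and −0.44. Srebf2, the gene of SREBP2 itself, was at 8.86 and 8.75 against 8.52 and 7.86. The exceptions were Hsd17b7, at 9.29 and 9.29 against 9.38 and 7.43, and Dhcr7, at 7.82 and 7.75 against 7.67 and 7.80. Srebf2, Hsd17b7 and Dhcr7 were picked after their values were seen. The median was −0.48 without double null 1 and −0.32 without double null 2.

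Hmgcs1, the synthase at the start of the pathway, and picked after its values were seen, was at 10.74 and 11.19 on the ApoE null arrays and at 10.53 and 10.49 on the double null arrays. All 5 of its probe sets, 4 of them tested, were lower, with differences from −0.59 to −0.36. Its promoter (chr13:119690101-119690400, plus strand) is printed because it was the only 1 of 17 sterol genes in the promoter table to hold TCACNCCAC, the letters of a sterol regulatory element, a motif added after the values were seen and found in 1.24% of all promoters. Capitals mark that motif and GGAAA.
Hmgcs1: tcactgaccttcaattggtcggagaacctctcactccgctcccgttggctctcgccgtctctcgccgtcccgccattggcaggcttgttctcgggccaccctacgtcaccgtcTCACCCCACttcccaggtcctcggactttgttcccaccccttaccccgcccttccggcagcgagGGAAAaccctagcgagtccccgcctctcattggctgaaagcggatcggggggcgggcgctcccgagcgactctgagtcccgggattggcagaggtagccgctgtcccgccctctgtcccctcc

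Other lipid genes were mixed. Among 15 tested genes of cholesterol efflux and LXR, the sterol-sensing receptor, 3 were higher and 6 lower without overlap (against 16.8% and 14.3% of all genes), with a median of −0.03. Abcg1, a cholesterol exporter, was at 6.49 and 6.10 against 7.10 and 7.13, and Abca1, its partner, at 10.99 and 10.97 against 11.27 and 11.22. Scd1, the desaturase, was at 10.25 and 10.28 against 9.74 and 9.67. Both exporters were higher and the desaturase lower on each double null array. Among 13 tested lipoprotein receptor and uptake genes, 3 were higher and 4 lower without overlap, against the same shares. The median was −0.09. Vldlr, a receptor of the same family as the low-density lipoprotein receptor, was at 8.33 and 8.28 against 8.70 and 8.91. Lrp5, a Wnt co-receptor of that family, was at 5.88 and 5.61 against 5.23 and 5.16. Of 16 tested fatty acid genes, 4 were higher and 2 lower without overlap, against the same shares, also with a median of −0.09. Among them Angptl4, an inhibitor of lipoprotein lipase, was at 9.48 and 9.39 against 10.17 and 10.54. None of these lists had a member that passed by limma.

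**Figure D4:**
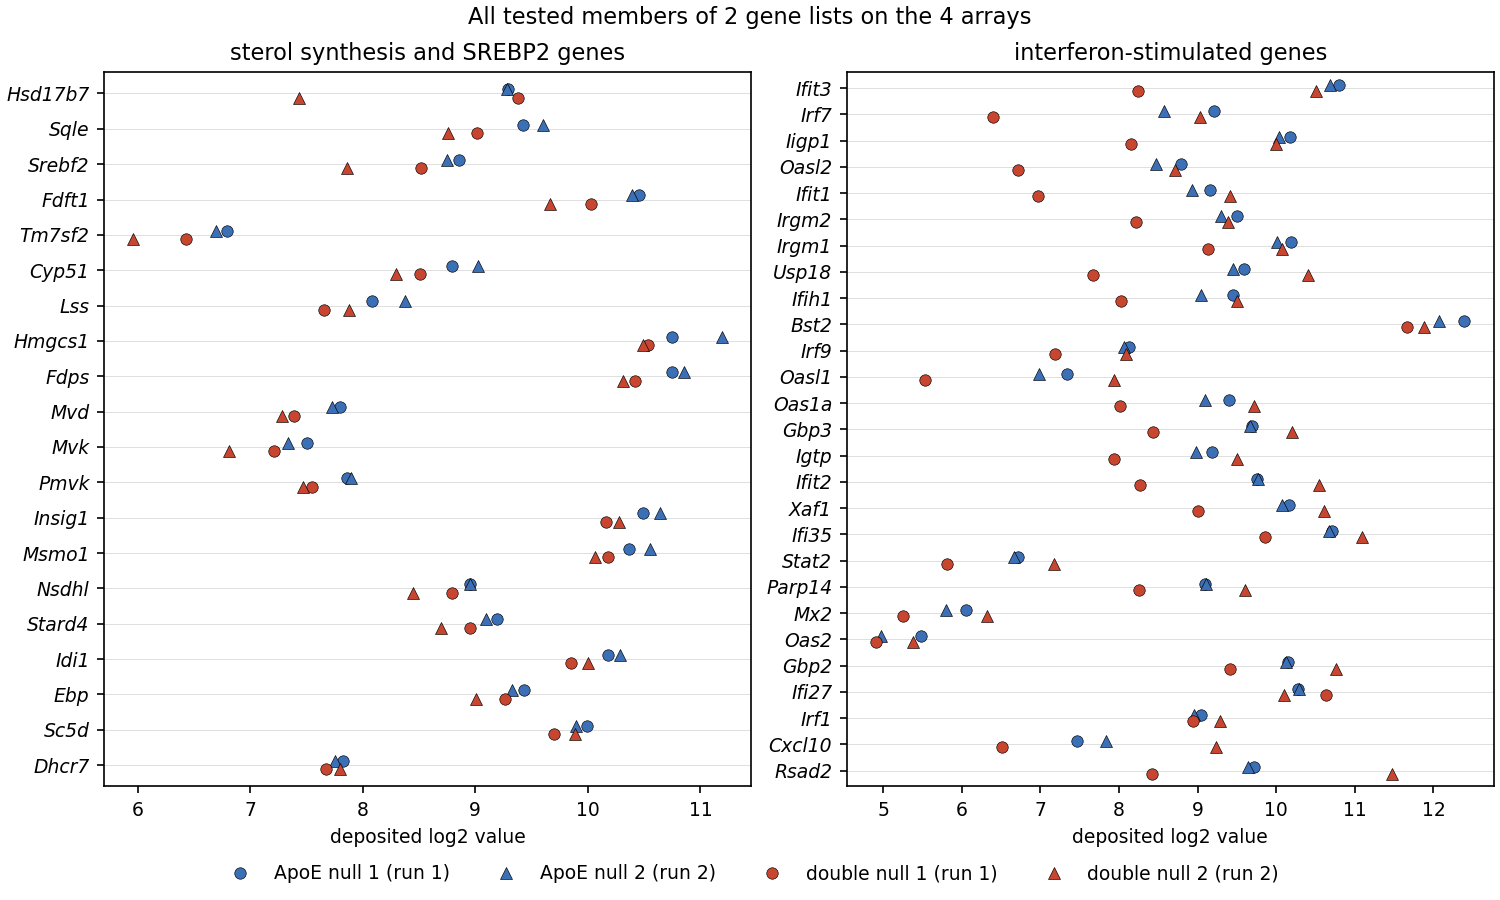
Deposited log2 value (horizontal axis) of every tested member of the sterol synthesis list (left, 20 genes) and of the interferon-stimulated list (right, 27 genes), ordered by the difference of group means. Blue marks are ApoE null and red marks double null arrays, circles run 1 and triangles run 2. On the left both red marks lie below both blue marks for 18 genes. On the right double null 1 lies below the other arrays for most genes, and double null 2 does not.

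The interferon-stimulated genes, induced by antiviral signalling, differed between the runs. Of 27 tested, 23 differences were negative and the median was −0.37, but it was −1.25 in run 1 and 0.49 in run 2. The genotypes did not overlap for 3 genes, all lower, against 14.3% of all genes in that direction. Ifit3, an antiviral effector, was at 10.80 and 10.68 on the ApoE null arrays, at 8.24 on double null 1 and at 10.51 on double null 2. Irf7, the factor that amplifies the response and picked after its values were seen, was at 9.21 and 8.58 against 6.40 and 9.03. Double null 1 was the low array for both genes, while double null 2 was close to the ApoE null arrays. Bst2, which tethers virus particles, was the lowest in p, at 12.39 and 12.07 against 11.66 and 11.88. Iigp1 and Irgm1, GTPases induced by interferon, differed by −1.03 and −0.50. Without double null 1 the median of the list was 0.40, and without double null 2 it was −1.15.

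Chemokines showed the reverse arrangement, with double null 2 apart. Of 12 tested, 4 were higher without overlap (against 16.8% of all genes) and none lower, and the median was −0.07 in run 1 and 1.26 in run 2. Ccl2, which attracts monocytes, was at 12.58 and 12.50 on the ApoE null arrays and at 12.90 and 13.62 on the double null arrays. Ccl7 was at 9.10 and 9.10 against 9.41 and 12.07, and Ccl20 at 4.58 and 4.69 against 4.75 and 8.41. Cxcl2, an attractant of neutrophils picked after its values were seen, was at 6.56 and 6.26 against 6.40 and 11.87. The last 2 were high on double null 2 alone. The same array was the highest for Lcn2, an iron-binding protein of innate immunity (7.13 and 7.40 against 7.68 and 12.77), and for Mmp13, a collagenase (5.60 and 5.46 against 6.55 and 11.24). Csf3, the granulocyte growth factor, was at 6.32 and 6.13 against 5.62 and 11.44. Lcn2 and Csf3 were also picked after their values were seen. None of the chemokines passed by limma.

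Copper and iron genes, the group Cp belongs to, were more often higher than lower. Without overlap, 8 of 21 were higher and 2 lower (against 16.8% and 14.3% of all genes). At an unadjusted p under 0.05, 6 were higher (against 2.68%). Hmox1, heme oxygenase, was at 9.99 and 10.06 on the ApoE null arrays and at 10.65 and 11.22 on the double null arrays. Mt2, a metallothionein, was at 7.88 and 8.12 against 8.89 and 10.39. Heph, a ferroxidase related to ceruloplasmin, was at 6.42 and 6.29 against 6.76 and 7.25. In each of the 3, double null 2 was the highest array and double null 1 the second. Slc40a1, the iron exporter ferroportin, was at 9.77 and 9.81 against 10.26 and 10.16, and was picked after its values were seen. The copper transporters Slc31a1 and Atp7a, likewise, differed by −0.03 and 0.06. None passed by limma.

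Stress genes were read as separate lists. Of 24 tested genes of ER stress, the response to misfolded protein, 23 differences were positive, 15 did not overlap (against 16.8% of all genes in that direction), and the median was 0.06 in run 1 and 0.37 in run 2. Atf3, a stress-induced factor, was at 8.79 and 8.59 against 9.24 and 9.93. Chac1, which degrades glutathione, was at 8.88 and 8.72 against 9.29 and 10.65. Asns, asparagine synthetase, was at 9.87 and 9.79 against 10.14 and 10.86. In all 3 genes double null 2 was above double null 1. Ero1a, an oxidase of the ER, was at 9.80 and 9.69 against 10.10 and 10.20. Among 26 tested NRF2 and glutathione genes, 15 differences were positive and 11 negative, with a median of 0.02 in run 1 and 0.21 in run 2. Without overlap 11 were higher and 6 lower (against 16.8% and 14.3% of all genes), with Gsta4, a glutathione transferase, at 6.68 and 6.36 against 7.56 and 7.95. Of 24 tested hypoxia and glycolysis genes, 18 differences were positive and 6 negative, and 12 were higher and 1 lower without overlap, against the same shares of all genes. Slc16a3, a lactate exporter, was at 3.99 and 4.0 against 4.57 and 4.72, and Pfkfb3, an activator of glycolysis, at 7.29 and 7.29 against 7.97 and 7.77. None of these genes passed by limma.

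Genes that mark and shape the endothelium were read by family. Of 15 tested arterial and Notch genes, 6 were lower and 1 higher without overlap (against 14.3% and 16.8% of all genes), and the median was −0.09 in run 1 and −0.55 in run 2. Hey2, a target of Notch in arteries, was at 4.69 and 4.69 on the ApoE null arrays and at 3.65 and 2.99 on the double null arrays. Bmx, an arterial kinase, was at 9.67 and 9.64 against 8.93 and 7.66. Gja4, a connexin, was at 10.37 and 10.18 against 9.91 and 7.40. All 3 were lowest on double null 2. Of 28 tested TGF-beta and BMP genes, 14 were lower and 4 higher without overlap, against the same shares of all genes. Id2, a target of BMP signalling, was at 10.92 and 10.76 against 9.62 and 7.50, and Bmp4, a ligand, at 12.58 and 12.51 against 11.98 and 11.10. Bmp2, another ligand, was instead higher, at 7.36 and 7.35 against 9.43 and 8.34. Id3, a relative of Id2, differed by −0.75. Of 14 VEGF and angiopoietin genes, 8 were higher and 4 lower without overlap (against 16.8% and 14.3% of all genes). The median was 0.31 in run 1 and 0.21 in run 2. Pgf, a ligand of the VEGF family, was close on the 2 double null arrays, at 11.17 and 10.96 against 11.84 and 11.86. Flt4, the receptor of lymphatic vessels, was at 9.43 and 9.34 against 9.72 and 10.01. None passed by limma.

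Matrix genes were divided as well. The collagens of basement membrane, Col4a1 and Col4a2, were at 12.28 and 12.19 and at 11.68 and 11.63 on the ApoE null arrays, and at 12.80 and 12.74 and at 12.17 and 12.18 on the double null arrays. Col4a5, of the same family, was lower, at 8.74 and 8.76 against 8.32 and 7.48. Eln, elastin, was at 6.86 and 7.14 against 6.20 and 5.77, and Tnc, a matrix protein of injured vessels, at 10.77 and 10.84 against 11.54 and 12.46. Mmp3, which degrades matrix, was at 5.31 and 5.44 against 6.51 and 9.84. Growth-related lists differed between the runs. All 31 tested DNA replication genes had a positive difference, yet the median was −0.05 in run 1 and 0.66 in run 2. Of these genes, 8 were higher without overlap, against 16.8% of all genes. Cdc45, a part of the replicative helicase, was at 6.92 and 6.64 against 7.04 and 7.64. Of 31 mitosis genes, 21 differences were positive, and 1 gene was higher without overlap, against the same share of all genes.

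The labelled cell type was checked against its markers. All 26 genes of endothelial identity exceeded the array median on all 4 arrays. Of these, 9 were lower and 4 higher without overlap (against 14.3% and 16.8% of all genes). Their median difference was −0.02 in run 1 and −0.26 in run 2, and none passed by limma. Pecam1, a gene of the study, was at 10.64 and 10.73 on the ApoE null arrays and at 10.47 and 10.24 on the double null arrays. Cdh5, the cadherin of endothelial junctions, was at 12.00 and 11.97 on the ApoE null arrays and at 12.10 and 11.91 on the double null arrays. Vwf, the clotting factor stored by endothelium, was at 9.42 and 9.26 against 9.44 and 6.63, and Eng, a TGF-beta co-receptor, at 10.89 and 10.88 against 10.81 and 9.64. Both were lowest on double null 2. Ptprb, the endothelial phosphatase with the lowest p of the list, was lower on both, at 11.23 and 11.12 against 10.41 and 9.91. Lyve1 and Prox1, markers of lymphatic endothelium, were also above the medians on all 4 arrays, with differences of 0.35 and 0.25. Among the marker genes in this and the next paragraphs, Cdh5, Vwf, Eng, Lyve1, Prox1, Lyz1, Lyz2, Acta2, Fabp4 and those at or below the medians were picked after their values were seen.

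**Figure D5:**
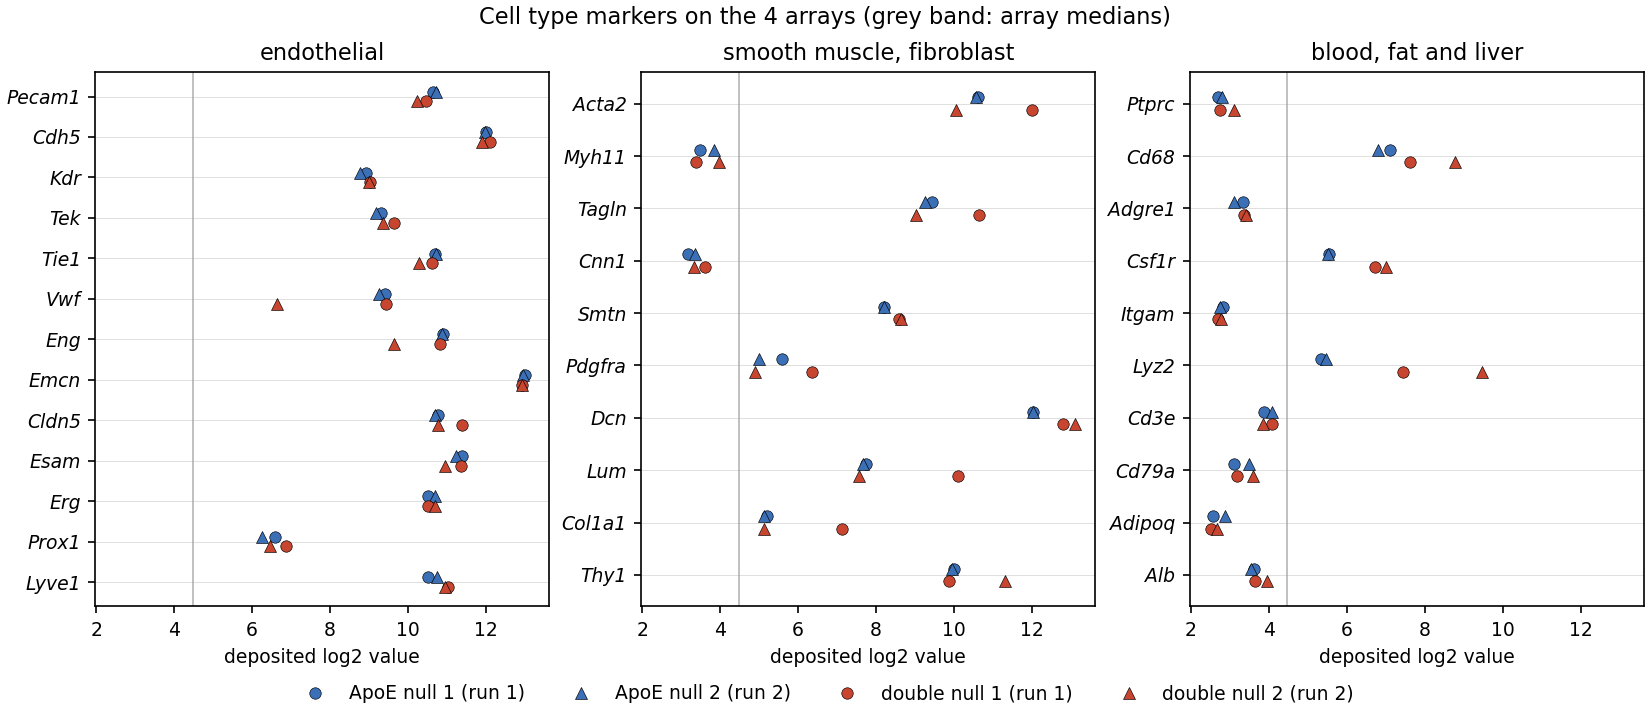
Deposited log2 value (horizontal axis) of cell type markers on the 4 arrays, for endothelium (left), smooth muscle and fibroblasts (middle) and blood, fat and liver (right). Blue marks are ApoE null and red marks double null arrays, circles run 1 and triangles run 2, and the grey line marks the array medians (4.46 to 4.5). The endothelial markers lie right of the line, and Ptprc, Adgre1 and Itgam left of it on every array.

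Markers of other cells differed between the genotypes too. Of 26 macrophage and myeloid markers, 8 exceeded the median on all 4 arrays. Of these 8, 7 were higher on both double null arrays (against 16.8% of all genes), the exception being Msr1. The summed level of the list on a linear scale was 838 to 881 on the ApoE null arrays and 1495 to 2324 on the double null arrays. Lyz2, lysozyme, was at 5.33 and 5.48 against 7.46 and 9.48, with a probe set of its near-identical relative Lyz1 likewise high, at 5.85 and 5.38 against 7.95 and 10.09. Csf1r, the receptor that maintains macrophages, was at 5.54 and 5.51 against 6.72 and 7.0, with smaller differences of 0.64 and 0.25 on its other probe sets. Lcp1, an actin-bundling protein of leukocytes, was at 7.49 and 7.26 against 8.64 and 8.67. The defining markers Ptprc, Adgre1 and Itgam were below the array median on all 4 arrays, at 2.71 to 3.42. Neither list membership nor these levels show which cells held the transcripts, and in such bulk cultures a different number of cells of a type and a different amount of RNA per cell cannot be told apart.

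Fibroblast markers summed to 8252 to 8495 on the ApoE null arrays and 13907 to 14455 on the double null arrays. Bright genes weigh most in such a sum, and in run 2 only 3 of the 10 tested markers were higher and 7 lower, with a median of −0.11 against 0.77 in run 1. Smooth muscle markers summed to 4263 to 4572 and 4030 to 8638. Dcn, decorin, a bright fibroblast gene that was higher in both runs, was at 12.02 and 12.02 against 12.79 and 13.09. Lum and Col1a1, matrix genes of fibroblasts, were high on double null 1 alone, at 7.74 and 7.66 against 10.10 and 7.55 and at 5.21 and 5.12 against 7.11 and 5.11. Acta2, smooth muscle actin, was at 10.63 and 10.57 against 11.99 and 10.05, again highest on double null 1. Of 8 tested smooth muscle markers, 7 differences were positive and 1 negative. Without overlap, 4 were higher and 0 lower (against 16.8% and 14.3% of all genes). These were Tpm2, Smtn, Mylk and Des, with differences of 1.34, 0.42, 0.45 and 0.305, and none passed by limma. All 8 were higher in run 1, but in run 2 only 4 were higher and 4 lower. Myh11 and Cnn1, which mark mature smooth muscle, were below the median on all 4 arrays. The double null cultures also differed from each other in these markers, and the part of other cell types in the matrix, chemokine and interferon differences above was not tested. Of the markers of other types, 3 of 13 for lymphocytes, 4 of 8 for fat cells and 2 of 9 for hepatocytes exceeded the median on all 4 arrays. Fabp4, a fatty acid carrier also known from endothelium, was at 12.18 and 12.40 against 11.75 and 12.91. The defining markers Cd3e, Adipoq and Alb were below the median on every array.

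The remaining genes with the lowest p did not pass. Acpp, an acid phosphatase, was at 5.48 and 5.21 on the ApoE null arrays and at 7.65 and 7.72 on the double null arrays (adjusted p = 0.102 by limma). Hgsnat, a lysosomal acetyltransferase, was at 8.46 and 8.26 against 11.17 and 10.56. Lcp2, an adaptor of immune receptors, was at 4.73 and 4.35 against 7.83 and 6.99, a 7.32-fold difference. All 3 were higher in each run by more than 2 on the log2 scale. Ms4a6d and Lmo7 were at 4.26 and 4.37 and at 5.14 and 5.08 against 6.41 and 6.35 and 7.11 and 7.24. Gpr176, Pdzrn3, Rassf2 and Arhgef26 had differences of 1.58, 1.56, 1.83 and 1.38. Ms4a6d, Pdzrn3, Rassf2 and Arhgef26 were below the array medians on both ApoE null arrays, and entered the test through the double null arrays alone.

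On the lower side, Adh1, an alcohol dehydrogenase that also oxidizes retinol, was at 9.92 and 9.72 against 6.99 and 6.40, an 8.71-fold difference (adjusted p = 0.122 by limma). Pnoc, the precursor of a neuropeptide, was at 8.10 and 8.04 against 5.37 and 4.26. Robo1, a guidance receptor, was at 5.17 and 4.89 against 3.22 and 3.25. Both double null arrays were below both ApoE null arrays in each. Rhpn2, Gxylt2, Fjx1, Hmcn1, Htra4 and Stmn2 had differences of −1.72, −1.59, −1.33, −1.07, −1.80 and −1.07. Robo1 and Stmn2 were below the array medians on both double null arrays, and entered the test through the ApoE null arrays alone. The lowest difference of any gene was that of Sfrp2, a secreted Wnt modulator picked after its values were seen, at 10.58 and 10.62 against 7.93 and 3.80. It was lower in both runs, by a difference of −2.65 in run 1 and −6.82 in run 2, and its SE was 1.33 (adjusted p = 0.89 by limma). Retinoid genes beside Adh1 included Aldh1a1, also picked after its values were seen, at 9.35 and 9.22 against 8.21 and 5.48.

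Liver arrays of the same 2 genotypes were set beside these values as a description, on log2(signal + 16), since the tissues were normalized separately and the difference between tissues was not tested. Of the 31 genes of the study or with the lowest p, 17 had the same sign in liver, and 7 did so without overlap in liver, while 6 lay the other way without overlap. Over all genes tested, liver values did not overlap for 16.3% higher and 15.6% lower in double null mice. Hprt was at signals of 1019 and 933 in ApoE null livers and 884 and 913 in double null livers. Xist was at 6.8 and 28.4 against 50.5 and 72.4. Neither showed the aortic difference. Cp was at 18697 and 19353 against 23147 and 21622, a difference of 0.23. Csf1r was higher in double null livers too, at 3259 and 2027 against 4456 and 3425.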

How the data were processed

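Total RNA of primary aortic endothelial cells was hybridised to Affymetrix mouse arrays of 45037 probe sets, 2 arrays per genotype. The authors deposited the aortic values as log2 values. The sources used here do not say how these were normalized. The Transcriptome Analysis Console is named in the submitters' processing notes. The liver values are intensity values deposited as signals of the older Affymetrix statistical algorithm, and 16 was added before log2. Groups were taken from titles and genotype labels, which name ApoE null as the other aortic genotype, while the series description names Dscr-1 null.

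Of the probe sets, 34945 had 1 gene, 932 several and 9160 none in the platform annotation, and 34741 of the first were matched by Entrez identifier, giving 18193 genes. Of 64 control probe sets 0 had an aortic value, so RNA integrity could not be read from them. Probe sets above the array median on at least 2 of the 4 arrays were tested (22927), and the brightest stood for its gene. The tests were limma 3.58.1 (R 4.3.3) with Benjamini-Hochberg adjustment over all tested probe sets, on 2 residual and 4.91 total degrees of freedom. They were checked on simulated data in which all arrays varied alike and independently. That check does not cover deviations shared within a run or an array apart from the others, such as double null 2. The number of arrays limits the precision. No pair of arrays was a repeat of another (correlations 0.9836 to 0.9956).

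Same-numbered arrays share a run name, and their deviations from the group means correlated at 0.297 across probe sets, so the replicate number was also fitted as a block. Alternatives were quantile normalization, median centring, other filters, a trended robust variance, the methods' t-test, the mean over probe sets and leaving out each array. The members and gene lists were chosen with earlier results of these data known. Genes were named if the study ties them to aortic cells, if they were among the 12 per direction with the lowest p where fewer passed, or if they had one of the 4 lowest p of a list described. Promoters came from a RefSeq table of GRCm38.p6.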

Additional observations from a re-analysis of the deposited data

Results flagged for a closer look

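For 6 genes both double null arrays of the aorta lay on one side of both ApoE null arrays while both double null livers lay on the other side of both ApoE null livers. Of the same 31 genes, 7 were without overlap in the same direction in both tissues, so that the opposite direction was not the more common. Among all genes tested, liver values did not overlap for 16.3% higher and 15.6% lower, so some such cases arise in any set of genes. The difference between the tissues was not tested, and the tissues were normalized separately. Hprt differed by 3.84 in aortic cells and by −0.12 in liver, and Xist by −4.68 and 1.27. Msr1, scavenger receptor A, differed by −1.79 in aortic cells and by 1.28 in liver, where ApoE null mice had signals of 5 and 3 and double null mice of 67.3 and 12.3. Adh1, an alcohol dehydrogenase, differed by −3.12 and 0.22. Fjx1, a secreted regulator of growth and polarity, differed by −1.33 and 0.38. These liver differences rest on weak signals, the strongest being 72.4 for Xist, 67.3 for Msr1 and 12.5 for Fjx1. All were below the average array signal that the study's methods describe. Whether they exceeded background was not tested, so the liver direction of Xist, Msr1 and Fjx1 is uncertain. Lcp1, the leukocyte actin-bundling protein, differed by 1.28 and −0.16.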

How the results depend on the processing

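Hprt and Xist were called, 1 gene higher and 1 lower, under quantile normalization, median centring, no filter, a 75th percentile filter, the mean over probe sets and, chosen after seeing the data, adjustment over 1 probe set per gene. The replicate block left 0 higher and 0 lower and changed no other call. A filter above the median on all 4 arrays left 1 higher and 0 lower, because Xist was then not tested. A trended robust variance gave 1 higher and 2 lower, with Adh1 added. The methods' t-test gave 0 and 0 after adjustment, and 419 genes at an unadjusted p under 0.05, 264 higher and 155 lower. Leaving out 1 array gave 0 to 722 genes higher and 0 to 1244 lower. Without double null 1 the counts were 722 and 1244, without double null 2 they were 283 and 183, and without either ApoE null array 0 and 0; the lone array is there assumed to vary like the other group. Signs turned for 3 genes that had not passed. Apoe differed by −0.52 without double null 1 and 1.08 without double null 2. Icam1 differed by −0.005 under median centring and by −0.29 to 0.32 without a double null array. Nos3 differed by −0.011 under median centring and by −0.006 to 0.031 without a double null array. The cause was not tested. With 2 arrays per genotype, differences of the size seen in most lists did not pass. Genes above the array medians on fewer than 2 arrays were not tested. A gene below the medians on both arrays of 1 genotype, such as Hey2 or Slc16a3, was tested through the other genotype alone.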
